A study of Mus musculus with 9 samples.

Results

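The 6 libraries of Zbtb46-modified MCEC, a mouse cardiac endothelial cell line, were compared as a whole with the 3 libraries of unmodified cells, to describe what both modified lines have in common whatever the direction in which Zbtb46 was changed. The series has 9 libraries and all 9 entered: 3 of wild-type cells (WT), 3 of cells with Zbtb46 knocked down (KD) and 3 of cells with enforced Zbtb46 overexpression (OE). The KD and OE groups were averaged with equal weight and set against WT, gene by gene. The labels name no other treatment, time or age. They leave unsaid by what method either line was made, whether each line is a clone, and whether replicates are separate cultures, so p-values measure the spread between these libraries, which may be technical. No library of cells given an empty vector was analysed here. A response to a changed amount of Zbtb46 therefore cannot be told apart from steps that both lines may have gone through and WT may not have, such as delivery of a construct, selection or passage.

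Zbtb46 is a zinc finger transcription factor with a BTB domain, known from classical dendritic cells and from endothelium. Several of the gene groups described here belong to stress programmes. When unfolded protein accumulates in the endoplasmic reticulum (ER), the factors ATF6 and XBP1 raise chaperone genes through the ER stress response element. The factor ATF4, whose translation rises when eIF2 alpha is phosphorylated, acts on amino acid synthesis and transport genes through elements of a different sequence. Sterol synthesis genes are under SREBP2, a factor that is released from the ER when cholesterol is low.

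Total counts ran from 39491828 to 55745849 per library, and 16955 genes passed the filter on low counts. Ribosomal RNA features took 7.44% to 17.3% of counts in WT, 9.55% to 12.0% in KD and 14.4% to 18.2% in OE. Replicates varied beyond counting error by 10.1% (WT), 3.81% (KD) and 4.73% (OE). Of 15 endothelial markers 7 were tested, and several that define the cell type were at or near 0: Erg had 0 counts in all 9 libraries (which allows up to 3 counts in a library), Emcn and Cldn5 had at most 3 counts in each, and Pecam1 did not exceed 0.222 CPM nor Cdh5 0.141 CPM in any. The summed level of 8 fibroblast markers, mainly collagen genes, was 8120 to 8990 CPM in WT, 8080 to 8200 in KD and 5090 to 5210 in OE. The label of an endothelial line thus stands beside RNA that lacks these defining endothelial transcripts. Levels are given as CPM, counts scaled to a common library total with factors from the trimmed mean of M values (TMM).

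Zbtb46 itself measured 13.3, 14.4 and 13.2 CPM in WT, 11.7, 11.4 and 10.7 in KD and 192, 189 and 194 in OE. The levels matched the labels in each library: all KD libraries lay under WT, by 0.28 on the log2 scale, and all OE libraries lay above it, by 3.81. The knockdown was thus small at the level of RNA and the overexpression large. The log2 fold change of the averaged lines, 1.76 (SE 0.04, adjusted p = 6.78e-16), comes from OE alone. All adjusted p-values given come from the quasi-likelihood test of edgeR, adjusted over the 16955 genes by the method of Benjamini and Hochberg. In a principal component analysis of the 500 most variable genes, the first component (59.6% of the variance) placed KD at -33.6 to -31.7, OE at 33.4 to 34.4 and WT between them at -1.97 to -1.02. The second component (26.7%) set WT, at 24.9 to 26.4, apart from all 6 modified libraries, at -14.1 to -11.6.

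Against WT, 3938 genes (23.2% of those tested) passed an adjusted p of 0.05 for the averaged lines: 1699 were higher (10.0%) and 2239 lower (13.2%). The median size of their change, whatever its direction, was 0.26 in log2 units. With library totals in place of TMM the count was 2962, of which 612 were higher, so that 20.7% of the calls were rises against 43.1% with TMM. With the 6 modified libraries treated as 1 group, so that differences between the lines count as spread, 262 genes passed, among them 8 ER, 5 ATF4 and 3 sterol genes of the lists below. When a change of at least 1.5-fold was required, 217 passed, with 0, 1 and 0 of these. An average can pass on the strength of 1 line. Of the 3938 genes, 1956 passed by themselves in OE only, 595 in KD only, 46 in neither, 331 in both with opposite signs, and 1010 in both with the same sign. The line-by-line tests, which share the 3 WT libraries, called 11.0% of genes higher and 10.4% lower in KD, and 17.0% higher and 19.5% lower in OE.

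The 1010 genes past the threshold in each line in the same direction (5.96% of those tested) are called shared below; 483 rose (2.85%) and 527 fell (3.11%). The median size of their change, whatever its direction, was 0.33 on the log2 scale. In 954 of them all 6 modified libraries lay on one side of all 3 WT libraries, against 4.89% of all genes tested with all 6 above and 5.76% with all 6 below. Only 47 rises and 56 falls reached 2-fold in each line. Of the 1010, 347 (34.4%) also differed between OE and KD, 245 with the larger change in OE and 102 with the larger change in KD; across all genes tested 41.5% differed between the lines. The count was sensitive to 1 library: without WT replicate 2 it was 1641 (945 rises and 696 falls). It was 641 (151 rises and 490 falls) with library totals alone.

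Among 26 gene lists, those for ER chaperones, ATF4 and cholesterol synthesis had medians above those of the other lists, and those for chemokines and endothelial identity had medians below them. The median log2 fold change over all genes tested was -0.01 for the averaged lines. Most members of the 3 rising lists were called in the averaged lines, yet the share called in each line by itself differed from list to list.

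**Figure D1:**
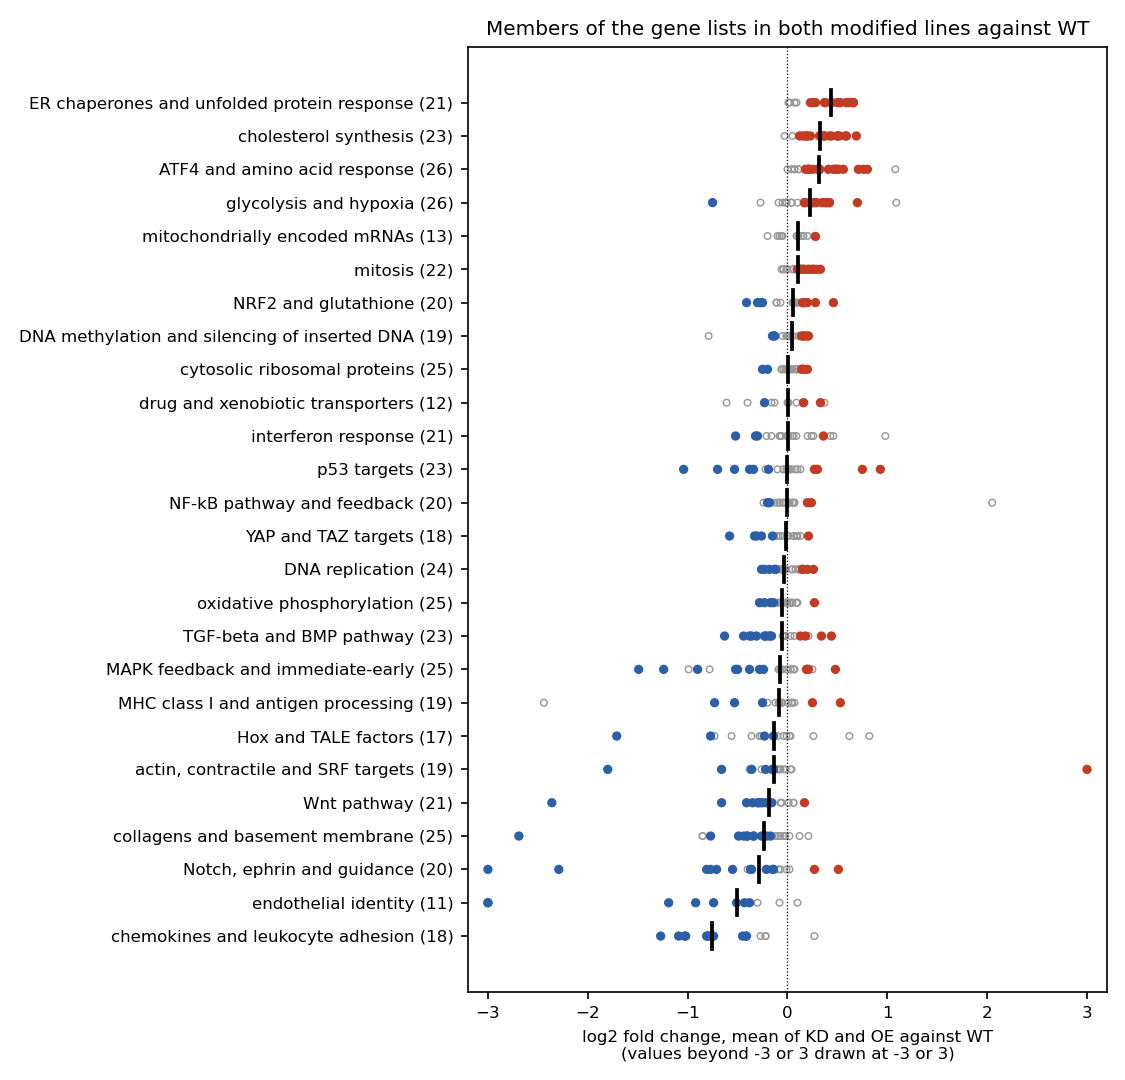
Log2 fold change of the mean of KD and OE against WT (x axis) for each tested member of 26 gene lists (y axis, number tested in brackets). Filled red and blue points passed an adjusted p of 0.05 upward and downward, open points did not, black bars are list medians, and values beyond -3 or 3 are drawn at the limit; the ER list median is 0.44 and the chemokine list median -0.75.

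Chaperones and quality control genes of the ER rose in both lines. Of the 21 listed genes all were tested, 17 rose in the averaged lines and 0 fell, with a median of 0.44; 12 rose in each line by itself. The 12 were the chaperones Hspa5, Hsp90b1, Calr and Canx, the disulfide isomerases Pdia4 and Pdia6, the co-chaperone Sdf2l1, Creld2, Manf, and the degradation factors Herpud1, Sel1l and Edem1. All 12 rose more in KD than in OE, each with an adjusted p under 0.05 for OE against KD. The list median was 0.66 in KD and 0.17 in OE. With the 6 modified libraries as 1 group 8 listed genes rose, and Sdf2l1, Canx, Edem1 and Sel1l did not pass.

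The upstream sequences of 5 of these genes are shown because they carry an element that is rare among promoters. The 250 bases before each RefSeq start (GRCm38.p6) were searched on both strands for the ER stress response element (CCAAT, any 9 bases, then CCACG) and for the second such element (ATTGG, any base, then CCACG). The first occurred in 8 of the 18 listed genes that matched a RefSeq window and in 0.113% of the 32851 windows. The second occurred in Herpud1 and in 0.0304% of windows. A gene counts if any of its windows matches, so a share of genes and a share of windows are unlike measures. Capitals mark the matches, and a match on the other strand reads as the reverse complement. A match describes the letters and is no evidence of binding.
Hspa5 (chr2:34771840-34772089, plus strand): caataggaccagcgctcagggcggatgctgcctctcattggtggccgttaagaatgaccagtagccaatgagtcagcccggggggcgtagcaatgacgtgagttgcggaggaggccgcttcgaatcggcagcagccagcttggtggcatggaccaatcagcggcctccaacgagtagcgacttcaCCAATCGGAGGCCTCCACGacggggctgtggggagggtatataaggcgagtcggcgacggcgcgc
Hsp90b1 (chr10:86705445-86705694, minus strand): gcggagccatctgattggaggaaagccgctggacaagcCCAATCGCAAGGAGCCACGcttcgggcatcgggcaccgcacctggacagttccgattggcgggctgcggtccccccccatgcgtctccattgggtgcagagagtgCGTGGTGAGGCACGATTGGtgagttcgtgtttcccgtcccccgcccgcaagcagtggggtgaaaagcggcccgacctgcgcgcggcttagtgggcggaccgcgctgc
Calr (chr8:84846932-84847181, minus strand): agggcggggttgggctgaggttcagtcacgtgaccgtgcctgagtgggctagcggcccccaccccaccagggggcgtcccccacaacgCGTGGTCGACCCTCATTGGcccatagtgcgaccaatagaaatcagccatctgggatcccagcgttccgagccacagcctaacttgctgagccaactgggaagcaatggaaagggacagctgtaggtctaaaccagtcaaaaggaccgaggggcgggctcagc
Creld2 (chr15:88819396-88819645, plus strand): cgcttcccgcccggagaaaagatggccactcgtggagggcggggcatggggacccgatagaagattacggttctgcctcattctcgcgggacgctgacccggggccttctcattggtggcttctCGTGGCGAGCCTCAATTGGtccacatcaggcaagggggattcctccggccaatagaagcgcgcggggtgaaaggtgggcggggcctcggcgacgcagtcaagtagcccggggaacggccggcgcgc
Herpud1 (chr8:94386179-94386428, plus strand): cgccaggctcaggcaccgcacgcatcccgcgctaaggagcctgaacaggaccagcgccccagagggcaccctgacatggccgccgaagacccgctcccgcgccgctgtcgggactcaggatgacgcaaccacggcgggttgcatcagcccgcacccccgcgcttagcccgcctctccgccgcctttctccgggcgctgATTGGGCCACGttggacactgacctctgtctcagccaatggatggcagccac

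The 8 listed genes with the first element were Hspa5, Hsp90b1, Calr, Canx, Pdia6, Creld2, Dnajc3 and Syvn1, and all 8 rose in the averaged lines. Dnajc3 (log2 fold change 0.83 in KD and 0.05 in OE) and Syvn1 (0.35 in KD and 0.10 in OE) are not among the 12 that passed in each line. Outside the list, 11 tested genes had the element. Of these 2 rose (Alg12 and Hnrnpa3) and 1 fell (Adcy3), with a median of 0.17, where 10.0% of all genes tested rose and 13.2% fell. Alg12 lost its call with library totals alone. Hsp90b1 has 2 matches, 1 on each strand. The Hspa5 match ends 46 bases and the Herpud1 match 41 bases before the start.

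Hspa5, which encodes the main ER chaperone BiP, measured 1280, 1290 and 1210 CPM in WT, 2100, 2260 and 2240 in KD and 1780, 1780 and 1820 in OE. Its libraries formed 3 separate levels, WT lowest and KD highest, and the log2 fold change of the averaged lines was 0.66 (SE 0.03, adjusted p = 1.44e-11), or 0.81 in KD and 0.51 in OE. Hsp90b1 (the chaperone GRP94) measured 505, 520 and 457 CPM in WT, 766, 807 and 804 in KD and 688, 682 and 719 in OE, with a log2 fold change of 0.59 (SE 0.06, adjusted p = 9.37e-10). Calr, a lectin chaperone of glycoprotein folding, measured 1450, 1400 and 1470 CPM in WT, 2170, 2260 and 2270 in KD and 1900, 1890 and 1980 in OE, with 0.53 (SE 0.03, adjusted p = 2.24e-10). For all of these no modified library reached down to WT.

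Sdf2l1, a partner of the ER chaperone cycle, measured 37.6, 33.5 and 38.4 CPM in WT, 68.4, 74.2 and 73 in KD and 46.9, 44.5 and 47.5 in OE; its change was 0.98 in KD and 0.34 in OE, the widest gap between the lines among the 12. Herpud1, a membrane protein of ER-associated degradation, measured 84.7, 77.9 and 80.2 CPM in WT, 143, 144 and 145 in KD and 110, 114 and 113 in OE, with a log2 fold change of 0.65 (SE 0.04, adjusted p = 8.07e-11). Log2 fold changes of the averaged lines were 0.63 for Creld2, 0.61 for Manf, 0.52 for Pdia6 and 0.50 for Pdia4. They were smaller for Edem1 at 0.44, Sel1l at 0.37 and Canx at 0.25. Xbp1, also on the list, did not pass for the averaged lines (log2 fold change 0.45 in KD and -0.26 in OE, adjusted p = 0.119). Ero1lb, an oxidase that supplies disulfide bonds in the ER and was named among the largest shared rises, measured 8.25, 10.4 and 8.64 CPM in WT, 17.6, 21.3 and 22 in KD and 16.3, 16.7 and 14.6 in OE, with a log2 fold change of 0.97 (SE 0.12, adjusted p = 1.16e-07). It too was higher in KD than in OE.

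Genes of the ATF4 programme also rose in both lines, with the larger changes in OE. All 26 listed genes were tested, 19 rose in the averaged lines and 0 fell, with a median of 0.31 (0.22 in KD and 0.40 in OE); 13 rose in each line. Of the 13, 8 rose more in OE than in KD, 0 rose more in KD, and 5 did not pass a difference between the lines. Library totals alone gave 8 such genes in place of 13. With the 6 modified libraries as 1 group 5 listed genes rose, and Trib3, Asns, Chac1 and Atf4 were among those that did not pass.

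Trib3, a pseudokinase induced by ATF4, measured 24.4, 23 and 21.1 CPM in WT, 28.7, 28.1 and 29.2 in KD and 53.5, 55.7 and 56.9 in OE, the widest gap between the lines among the 13, and the log2 fold change of the averaged lines was 0.80 (SE 0.06, adjusted p = 8.31e-10). Ddit3, which encodes the stress factor CHOP, measured 7.67, 8.02 and 6.67 CPM in WT, 11.7, 11.7 and 11.9 in KD and 14.3, 13.9 and 12.4 in OE, with 0.76 (SE 0.09, adjusted p = 1.24e-06); its difference between OE and KD did not pass (adjusted p = 0.0888). Asns, asparagine synthetase, measured 176, 170 and 161 CPM in WT, 195, 204 and 208 in KD and 277, 279 and 301 in OE, with 0.51 (SE 0.04, adjusted p = 8.77e-09). In each of these genes all 6 modified libraries lay above WT, as in 4.89% of all genes tested. For Ddit3 the rule that picked it required this. Ddit3 overlaps Mars in the annotation, and counts of overlapping genes could be shared.

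The serine pathway moved with them: log2 fold changes of the averaged lines were 0.21 for Phgdh, 0.32 for Psat1 and 0.48 for Psph, the enzymes from phosphoglycerate to serine, and 0.32 for the mitochondrial folate enzyme Mthfd2. Amino acid transporters rose by 0.46 (Slc7a11, cystine), 0.41 (Slc7a1, cationic amino acids) and 0.21 (Slc38a2, neutral amino acids). Slc38a2 lost its call without WT replicate 3 and with library totals alone. The glutathione-degrading enzyme Chac1 changed by 0.23 in KD and 0.90 in OE, the partner factor Cebpg by 0.26 in KD and 0.38 in OE, and Atf4 mRNA itself by 0.17 in KD and 0.34 in OE. The ATF4-type element (TGATG, any base, AA, then T or C, on either strand) was found in 6 of the 24 listed genes with a window. These were Asns and Chac1, both shared changes, Fgf21 and Vldlr, which rose in the averaged lines, and Nupr1 and Pycr1, which were not called. Of all windows 1.52% had the element, again a share of windows and not of genes. Among 103 tested genes outside the list that had this element, 18 rose and 20 fell. Of all genes tested, which include genes without a window, 10.0% rose and 13.2% fell. The element is shown for Asns, where it lies near the start, 14 bases before it.
Asns (chr6:7693210-7693459, minus strand): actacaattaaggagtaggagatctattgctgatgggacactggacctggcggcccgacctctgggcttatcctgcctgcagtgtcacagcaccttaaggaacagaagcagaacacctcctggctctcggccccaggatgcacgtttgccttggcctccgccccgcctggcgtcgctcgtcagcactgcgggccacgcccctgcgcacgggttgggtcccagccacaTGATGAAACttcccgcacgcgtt

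Sterol synthesis genes rose for the averaged lines, but most of that came from OE. Of 24 listed genes 23 were tested, 19 rose and 0 fell, with a median of 0.33 (0.11 in KD and 0.62 in OE); only 5 rose in each line. Among these were Hmgcs1 and Idi1 of the mevalonate steps, and Sqle and Msmo1 of the later steps. Idi1 measured 22.3, 25.1 and 19.9 CPM in WT, 30.6, 33.9 and 34.8 in KD and 34.3, 34.5 and 34.6 in OE and changed about equally, by 0.56 in KD and 0.62 in OE. Msmo1, by contrast, measured 69.7, 67.3 and 54.5 CPM in WT, 80.3, 79.3 and 80.7 in KD and 133, 134 and 131 in OE and Sqle changed by 0.20 in KD and 0.83 in OE. Both Msmo1 and Sqle rose more in OE than in KD, whereas for Idi1 and Hmgcs1 (0.29 in KD and 0.36 in OE) a difference between the lines did not pass. A list gene such as Fdft1, at -0.03 in KD and 0.76 in OE, entered the average from OE alone. With the 6 modified libraries as 1 group 3 listed genes rose, and neither Sqle nor Msmo1 passed.

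**Figure D2:**
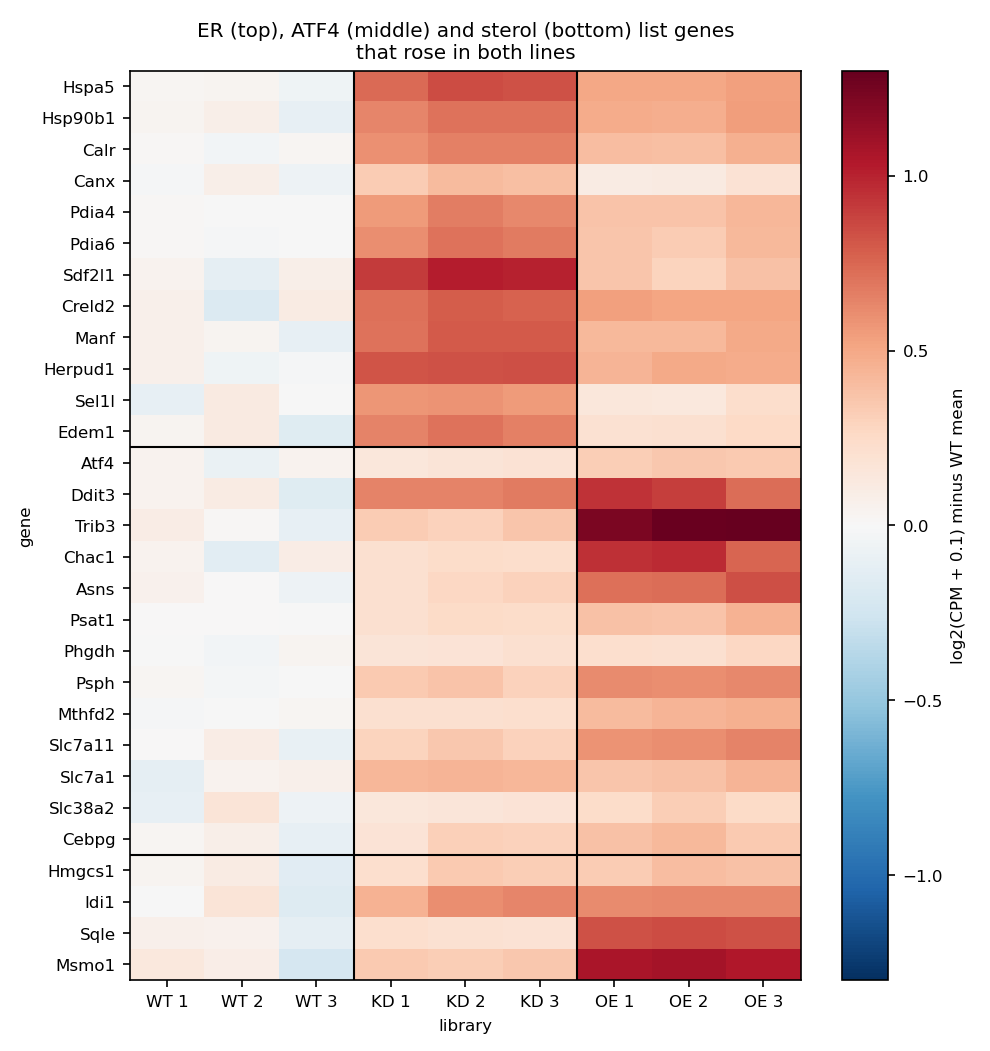
Level of each gene (y axis) in each of the 9 libraries (x axis), as log2(CPM + 0.1) minus the mean of the 3 WT libraries, on a colour scale that ends at 1.3 in either direction. The 12 ER genes (top) are darkest in KD, the 13 ATF4 genes (middle) mostly in OE, and of the 4 sterol genes shown (bottom) Sqle and Msmo1 are darkest in OE; Hspa5 is at 0.81 in KD and 0.51 in OE on the fitted log2 scale.

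The largest shared rises were of another kind: a small number of genes that were at or near 0 counts in WT and well above it in both lines. Taking at most 3 counts in each WT library and at least 10 in each of the 6 modified libraries, 16 genes on 14 chromosomes were on in both lines, 9 of them protein coding; 4 met this in KD only and 3 in OE only. The reverse pattern was rarer, with 3 genes off in both lines (Fsd1, Lrfn3 and Sectm1a), against 21 off in KD only and 5 in OE only. These on and off genes were picked by their values, so no test is offered for the pattern; Actc1, also a named gene and a list member, enters counts of calls elsewhere.

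Actc1, cardiac alpha actin (GRCm38 chr2:114047282-114053548, minus strand), had 0 counts in all WT libraries and 6.52, 7.79 and 7.31 CPM in KD and 4.75, 5.05 and 6.36 in OE. That is at least 96.1-fold higher, taking 3 counts in each WT library as the floor. Other cardiomyocyte markers did not follow: Myh6, Myh7, Nppa and Pln, 4 of the 8 listed, had at most 3 counts in each of the 9 libraries. The summed level of the 8 was 0.756 to 1.05 CPM in WT, 7.55 to 8.56 in KD and 6.37 to 7.96 in OE, of which Actc1 made up most in the modified libraries. Med12l, a relative of a Mediator kinase module subunit, had 0, 2 and 0 counts in WT and measured 16.3, 15.3 and 14.8 CPM in KD and 14, 12.6 and 14.6 in OE. The gene spans those of several purine receptors, among them P2ry12, P2ry13 and P2ry14, so counts there cannot be assigned without the counting rules. The olfactory receptor gene Olfr1512 was at 0 in WT, 2.54, 2.49 and 2.6 CPM in KD and 2.0, 1.72 and 2.44 in OE. The inflammasome gene Nlrp6 was at 0 in WT, 1.33, 0.829 and 1.02 CPM in KD and 0.81, 1.03 and 0.80 in OE. Actins and olfactory receptors have close relatives between which reads could be split.

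The highest levels were at unnamed loci. Gm43305 (GRCm38 chr14:54292443-54297456, minus strand, a processed transcript in GENCODE M21) had 1, 6 and 0 counts in WT and measured 205, 206 and 198 CPM in KD and 164, 161 and 165 in OE. Gm49980, on chromosome 18, measured 0.738, 1.31 and 0.716 CPM in WT, 206, 210 and 212 in KD and 171, 180 and 185 in OE, and Gm4316, on chromosome 8, 3.08, 3.14 and 3.27 CPM in WT, 86.1, 86.9 and 77.2 in KD and 60.2, 56.6 and 61 in OE. At each of these loci every KD library lay above every OE library. Over the 16 genes that were on, KD exceeded OE in 14, with a median ratio of KD to OE of 1.20 (0.862 to 2.19).

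Genes near these loci were examined for shared changes of their own. Within 300 kb of the 16 genes, 111 neighbours had at least 1 CPM and 13 of them were shared changes, beside 5.96% of all genes tested. The 5.96% has no such limit on level, so it is not a matched share for these neighbours. Nlrp6, Tcp11, Gm37010 and Gm42031 had 2 shared neighbours each, the most of any of the 16. The loci that follow were examined too but are not among the 16, and their neighbours are not in the 111. Gm43305 had 11 such neighbours, with 0 shared changes and a median log2 fold change of -0.02. Fbxo25 had 8, with 0 shared changes and a median of 0.02. Gm4316 had 17, of which Spire2 was a shared change, with a median of -0.25, and Gm49980 had 3, with 0 shared changes and a median of -0.06. Gm46620 had 5, of which Gm10524 was a shared change, with a median of -0.03. Of 142 windows of 20 Mb, 2 had a median beyond 0.2 for the averaged lines, the lowest at -0.275, and 0 had one beyond 0.2 with the same sign in each line.

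**Figure D3:**
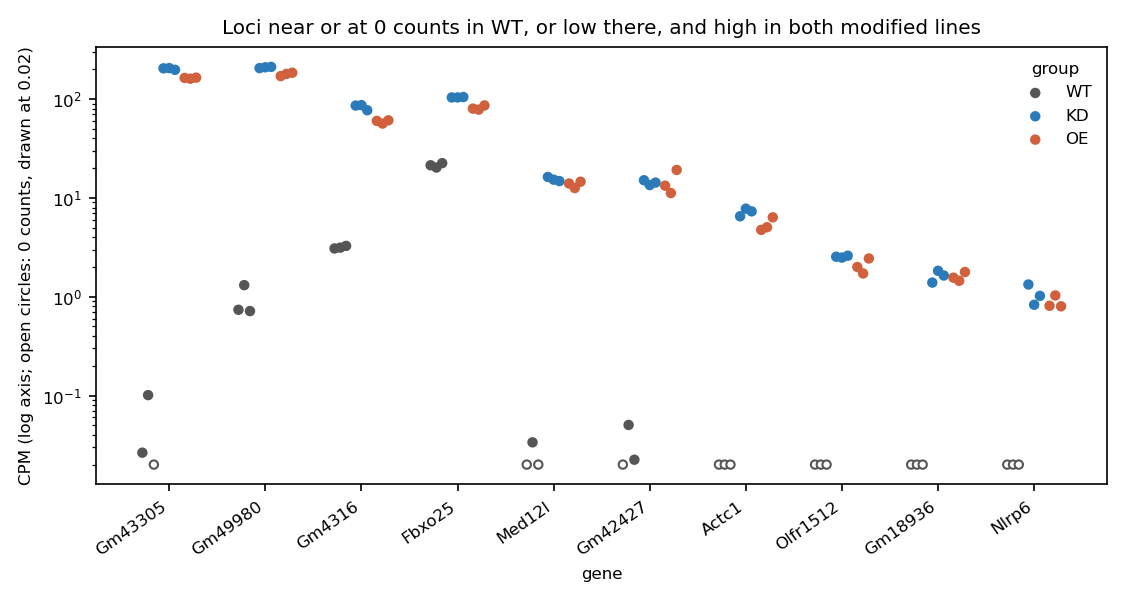
CPM (y axis, log scale) of 10 genes (x axis) in the 3 WT, 3 KD and 3 OE libraries, 1 point per library, with 0 counts drawn as open circles at 0.02. All WT points lie below all modified points, and KD and OE lie close together, as for Med12l at 12.6 to 16.3 CPM in the modified libraries.

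Among genes already expressed in WT, Fbxo25, an F-box protein of a ubiquitin ligase complex, measured 21.4, 20.3 and 22.5 CPM in WT, 104, 104 and 105 in KD and 80.2, 78.3 and 86.3 in OE, with a log2 fold change of 2.11 (SE 0.05, adjusted p = 2.91e-17). It was higher in every modified library than in any WT library, which the rule that picked it required. It was also higher in KD than in OE (adjusted p = 5.98e-06). The vomeronasal receptor gene Vmn1r43 measured 30.5, 40.5 and 30.5 CPM in WT, 104, 102 and 103 in KD and 87.7, 89 and 94.3 in OE, a 2.83-fold rise (adjusted p = 1.98e-08); it overlaps Vmn1r42 and belongs to a large family, so its identity is uncertain. Plagl1, an imprinted zinc finger gene, measured 0.738, 0.689 and 0.47 CPM in WT, 1.11, 1.68 and 1.23 in KD and 6.29, 7.41 and 7.09 in OE, a rise in both lines that was larger in OE. The remaining named rises were Pdgfc, a platelet-derived growth factor, at 0.80, the membrane protein gene Fam171b at 0.83, the membrane metalloprotease Mme at 0.73 and the dystrobrevin gene Dtna at 0.57. For Pdgfc, Mme and Dtna a difference between the lines did not pass.

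The falls shared by both lines included genes of vessel identity and of the muscle cytoskeleton. Tal1, a blood and endothelial transcription factor, measured 4.98, 4.44 and 3.94 CPM in WT, 0.119, 0.0251 and 0.041 in KD and 0.192, 0.121 and 0.0222 in OE. It was near 0 in all modified libraries, and its log2 fold change was -5.66 (SE 0.35, adjusted p = 1.12e-11). Only its level in WT carried it past the count filter, so it could be called only as a fall. Meis1, a homeobox cofactor, measured 8.52, 8.39 and 9.02 CPM in WT, 2.5, 2.79 and 2.09 in KD and 3.22, 2.04 and 3.25 in OE, with -1.71 (SE 0.13, adjusted p = 7.5e-09). Acta2, smooth muscle actin, measured 6.85, 7.51 and 8.84 CPM in WT, 2.84, 2.79 and 2.77 in KD and 1.66, 1.96 and 1.64 in OE, with -1.80 (SE 0.11, adjusted p = 6.36e-10). For all of these the modified and WT libraries did not overlap. For Meis1 and Acta2 the rule that picked them required this. Of all genes tested 5.76% had all 6 modified libraries below WT.

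Serpinf1, which encodes the secreted angiogenesis inhibitor PEDF, measured 26.7, 28.9 and 28.1 CPM in WT, 11.8, 9.52 and 11.5 in KD and 8.53, 7.33 and 9.0 in OE, with a log2 fold change of -1.55 (SE 0.07, adjusted p = 5.41e-12). Alpl, tissue-nonspecific alkaline phosphatase, changed by -1.64 in KD and -1.21 in OE, the actin-bundling gene Espn by -1.38 in KD and -1.21 in OE, the F-box gene Fbxl16 by -1.13 in KD and -1.36 in OE and the clock-related factor Hlf by -1.01 in KD and -1.33 in OE. These were of similar size in both lines, although Hlf and Serpinf1 passed a difference. Others were shared in direction with a large gap: Zrsr1, an imprinted gene inside Commd1, measured 5.64, 5.24 and 6.71 CPM in WT, 2.52, 2.49 and 3.3 in KD and 0.746, 0.767 and 0.511 in OE. Ppfibp2, a liprin of cell adhesion sites, measured 18.2, 18 and 17.3 CPM in WT, 7.79, 9.07 and 8.79 in KD and 2.11, 1.45 and 1.04 in OE. Pogk went the other way, at 4.61, 6.59 and 4.3 CPM in WT, 0.636, 0.703 and 0.84 in KD and 2.34, 2.71 and 2.4 in OE, lowest in KD. Islr, a secreted leucine-rich repeat protein, changed by -1.01 in KD and -2.06 in OE.

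Endothelial identity genes, as far as they were expressed at all, tended to be lower. Of 25 listed genes 11 were tested, of which 8 fell in the averaged lines and 0 rose (median -0.51), and 4 fell in each line: Kdr, Eng, Egfl7 and Tal1. The count filter keeps a gene expressed in WT alone, such as Tal1, which could then only be called as a fall. Where at least 10 counts in every library were required, 9 were tested, 6 fell in the averaged lines and 3 in each line. With the 6 modified libraries as 1 group 2 fell, the median was -0.28, and Kdr and Eng did not pass. Kdr, the main VEGF receptor, measured 2.82, 2.74 and 2.35 CPM in WT, 1.69, 1.31 and 1.21 in KD and 1.53, 1.88 and 1.89 in OE, a low level that fell by 0.74 on the log2 scale. Eng, a TGF-beta co-receptor and the only one of the 4 above 10 CPM, measured 119, 122 and 132 CPM in WT, 107, 106 and 112 in KD and 82.1, 88.1 and 84.4 in OE, with -0.38 (SE 0.05, adjusted p = 7.09e-07). Egfl7, a secreted vascular factor, changed by -0.79 in KD and -1.05 in OE; it hosts Mir126a, and it overlaps other genes. The other 14 listed genes, among them Pecam1, Cdh5 and Erg, did not pass the count filter. The summed level of the 15 endothelial markers was 152 to 164 CPM in WT, 126 to 133 in KD and 115 to 127 in OE. Eng made up most of that sum in every library, so the sum describes mainly Eng and not a fall across the markers. In bulk RNA, fewer cells of a type and less RNA per cell cannot be told apart.

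Guidance genes were also mostly lower. Of 22 listed Notch, ephrin and guidance genes 20 were tested, 11 fell and 2 rose (Jag1 and Hey2), with a median of -0.29, and 6 fell in each line. With the 6 modified libraries as 1 group 3 fell, and Plxnd1, Slit3 and Ephb4 were not among the calls. Plxnd1, a semaphorin receptor of vessels, changed by -0.30 in KD and -1.24 in OE, the secreted ligands Slit3 by -0.25 in KD and -0.85 in OE, Sema3c by -0.59 in KD and -0.82 in OE and Sema3f by -0.40 in KD and -0.35 in OE, and the receptor Ephb4 by -0.28 in KD and -0.13 in OE. Robo1, a Slit receptor, measured 1.21, 0.891 and 1.07 CPM in WT, 0.199, 0.452 and 0.205 in KD and 0.149, 0.162 and 0.178 in OE. Plxnd1, Slit3 and Sema3c fell more in OE and Ephb4 fell more in KD, while Robo1 and Sema3f did not pass a difference.

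Chemokine and leukocyte adhesion genes had the lowest median of the 26 lists. Of 25 listed genes 18 were tested, 12 fell and 0 rose, with a median of -0.75 (-0.43 in KD and -0.84 in OE), and 5 fell in each line. With the 6 modified libraries as 1 group 3 fell, the median was -0.49, and neither Cxcl12 nor Il33 passed. Cxcl12, the ligand of CXCR4, measured 31.3, 32.9 and 31.7 CPM in WT, 12.9, 10.1 and 11.8 in KD and 20.8, 22.4 and 21.4 in OE, with a log2 fold change of -1.02 (SE 0.06, adjusted p = 3.07e-10). Il33, an alarmin cytokine, measured 39.7, 40.8 and 35.9 CPM in WT, 27.3, 29.1 and 29.3 in KD and 11.3, 12.5 and 11.3 in OE, with -1.09 (SE 0.06, adjusted p = 1.62e-11). The lines differed for both, with Cxcl12 lowest in KD and Il33 lowest in OE.

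Cxcl10, an interferon-induced chemokine, measured 5.3, 6.13 and 5.55 CPM in WT, 2.82, 2.84 and 2.48 in KD and 2.6, 2.99 and 2.89 in OE, with -1.03 (SE 0.08, adjusted p = 1.8e-06), and was among the 4 most even changes between the lines. Cxcl16 changed by -0.76 in KD and -0.84 in OE and Ccl2, which attracts monocytes, by -0.42 in KD and -0.42 in OE. Other members entered the average from 1 line, such as the adhesion receptor Vcam1 at 0.03 in KD and -1.57 in OE. The 21 tested interferon response genes showed no such shift, with 1 rise (Stat2), 3 falls (Irf9, Ifi27 and Gbp2), 0 shared changes and a median of 0.01 that changed sign between settings. Of 7 leukocyte and macrophage markers, Ptprc, Adgre1 and Itgam had at most 3 counts in each library. The summed level of the 7 was 6.54 to 7.02 CPM in WT, 6.72 to 7.13 in KD and 6.56 to 7.84 in OE, and 0 of them were called.

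**Figure D4:**
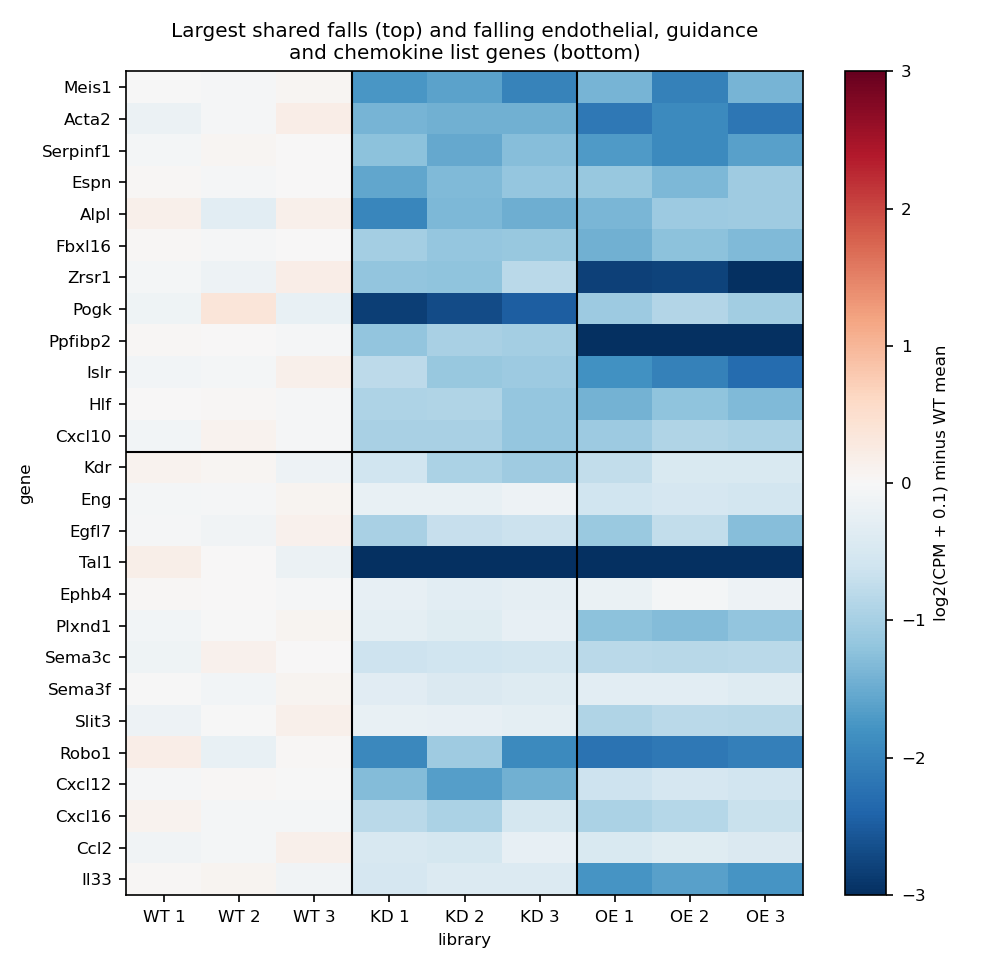
Level of each gene (y axis) in each of the 9 libraries (x axis), as log2(CPM + 0.1) minus the mean of the 3 WT libraries, with colours ending at -3 and 3. The 12 largest named falls (top) and the further endothelial, guidance and chemokine genes that fell in each line (bottom) are below the WT mean in the modified libraries, least so for Ephb4 at -0.21 on the fitted log2 scale.

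The remaining lists cover growth, matrix, signalling and metabolism. Among 22 mitosis genes 12 rose and 0 fell (median 0.11), and Top2a (log2 fold change 0.22), Prc1 (0.16) and Aurka (0.13) rose in each line. Of 24 DNA replication genes 4 rose and 5 fell, a called share of 37.5% beside 23.2% of all genes tested. In each line Cdc6 rose (0.20, lost with library totals alone) while the helicase subunits Mcm2 (-0.18), Mcm6 (-0.13) and Mcm7 (-0.12) fell. Glycolysis and hypoxia genes had a median of 0.22, but -0.12 in KD and 0.53 in OE. Of the 26, 14 rose and 1 fell (Car9). Only Vegfa (0.45 in KD and 0.40 in OE) and Pfkp (0.15 in KD and 0.31 in OE) rose in each line. That shared share of 7.69% was near the 5.96% of all genes tested. Of 25 tested collagen and basement membrane genes 12 fell and 0 rose. Yet Col1a1 alone fell in each line (-0.14 in KD and -0.38 in OE), a shared share of 4.0% beside 5.96% of all genes tested. The summed fibroblast markers, which include Col1a1 and Col3a1, moved the same way in OE, and their part in this was not tested. With the 6 modified libraries as 1 group, 0 mitosis genes and 1 glycolysis gene rose, and 0 collagen, 0 Wnt and 1 TGF-beta genes fell. With library totals alone Prc1 and Aurka lost their calls; Aurka also did without KD replicate 2 and without WT replicate 3, and Mcm7 without WT replicate 1.

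Of 23 tested TGF-beta and BMP genes 4 rose and 10 fell. In each line Tgfb3 (-0.33 in KD and -0.94 in OE), Bmp4 (-0.25 in KD and -0.21 in OE), Id1 (-0.16 in KD and -0.17 in OE) and Eng fell and Inhba rose (0.30 in KD and 0.58 in OE). Of 21 tested Wnt genes 1 rose (Wnt4) and 10 fell, with Wnt5a (-0.35), Fzd2 (-0.22) and Lrp5 (-0.27) falling in each line. Of 25 MAPK feedback and immediate-early genes 4 rose and 8 fell; Dusp1 (-0.50) and Fosb (-1.24) fell and Spred1 (0.21) and Myc (0.20) rose in each line. Of 19 tested contractile genes 1 rose (Actc1) and 8 fell, with Acta2 and Tpm2 (-0.66) in each line. Of 18 YAP and TAZ targets 1 rose (Tead1) and 5 fell, only Ccn1 (-0.31) in each line. That shared share of 5.56% was near the 5.96% of all genes tested. Of 17 tested Hox and TALE genes 4 fell (Meis1, Meis2, Meis3 and Pbx2) and 0 rose, a called share of 23.5%, near the 23.2% of all genes tested. Meis1 alone fell in each line. Spred1 and Myc lost their calls with library totals alone.

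NRF2 and glutathione genes were mixed, with 6 of 20 higher and 4 lower; Txnrd1 (0.28), Slc7a11 (0.46), Cat (0.20) and Gpx1 (0.15) rose and Osgin1 (-0.41) fell in each line. Of 23 tested p53 targets 4 rose and 6 fell, and Sesn1 (-0.38), Trp53inp1 (-0.53) and Btg2 (-0.70) fell in each line. NF-kB genes gave 2 rises and 2 falls of 20, with Nfkb1 (-0.20) the sole shared change; these 4 calls of 20 and the shared share of 5.0% were near the 23.2% and 5.96% of all genes tested, and Nfkb1 did not pass with the 6 modified libraries as 1 group. Antigen processing genes gave 2 rises (Calr and Canx, also ER genes) and 3 falls (Tap1, Tap2 and Tapbp) of 19. That called share of 26.3% was near the 23.2% of all genes tested. Of 12 tested drug transporters 2 rose, Abcb1b (0.33) and Abcc1 (0.16), both in each line, and 1 fell (Slc22a5), a called share of 25.0% beside 23.2% of all genes tested. Abcc1, Cat and Gpx1 lost their calls with library totals alone. Of 19 tested DNA methylation and silencing genes 5 rose and 3 fell, and Setdb1 (0.17, lost with library totals alone) rose in each line. That shared share of 5.26% was near the 5.96% of all genes tested. Among 13 mitochondrially encoded mRNAs 1 rose, mt-Nd5 (0.28, lost without WT replicate 3). It rose in each line, a shared share of 7.69% beside 5.96% of all genes tested. There were 0 shared changes among 25 cytosolic ribosomal protein genes (4 rises and 2 falls) and 25 oxidative phosphorylation genes (1 rise and 4 falls).

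Some of the largest calls of the averaged lines were not shared. Fgfbp3, a carrier of fibroblast growth factors, measured 1.56, 1.36 and 1.86 CPM in WT, 1.25, 1.43 and 1.0 in KD and 36.3, 36.4 and 35.1 in OE, and Ntng2, a netrin-G, 0.105, 0.168 and 0.246 CPM in WT, 0.0795, 0 and 0.123 in KD and 6.22, 6.64 and 5.65 in OE; both were high in OE alone. The averaged call of Ntng2 was lost without KD replicate 3, with limma-voom weighted by group, with the 6 modified libraries as 1 group and at a minimum of 1.5-fold. Asmt, the last enzyme of melatonin synthesis, measured 6.01, 4.57 and 5.1 CPM in WT, 4.89, 4.52 and 4.26 in KD and 0.256, 0.0404 and 0.178 in OE, and was low in OE alone. In each, KD did not pass against WT and the difference between OE and KD did.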

How the data were processed

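The authors deposited 1 table of raw read counts (whole numbers, by their values) with 1 row per Ensembl gene and 1 column per library. Per the submitters' processing notes the build was GRCm38 (mm10). Which aligner, counter, strand setting and annotation release were used is not given in the sources used here. Per the labels' protocols, RNA was poly-A selected, reverse transcribed from random primers and read as pairs. Of 55774 rows, 168 genes on 455 rows repeated identical counts and were taken once, leaving 55487 genes.

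Counts were fitted in edgeR 4.0.16 (R 4.3.3): filterByExpr by group, TMM scaling, robust quasi-likelihood over all 9 libraries, and contrasts (KD + OE)/2 - WT, KD - WT, OE - WT and OE - KD, with Benjamini-Hochberg adjustment over 16955 genes and a threshold of 0.05. Each SE was computed from group SDs of log2 CPM with a prior count of 2. Exact permutation of 3 WT and 6 modified libraries has a smallest two-sided p of 0.0238, too coarse for many genes, so the model was used. Positions are from GENCODE M21.

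The comparison, the 26 lists and the tests were chosen with earlier results of these data known. The named genes were Zbtb46; the 12 rises and 12 falls with the largest smaller change of both lines (shared, libraries not overlapping, at least 5 CPM in a group, no predicted-gene name); the 4 most even changes of at least 2-fold; per list the shared gene with the smallest p; and 2 genes in each direction called from 1 line alone. Other genes were named after their values were seen. Not reported here are 1 gene chosen by these criteria and 1 list member. On simulated counts for 16955 genes, the averaged contrast recovered 75.0% of 96 genes changed 2-fold and 53.1% of 96 changed by 0.5 log2, and 3.15% of 127 calls were unchanged genes. Alternatives used DESeq2 1.42.0 and limma 3.58.1, other scalings and filters, and left out each library.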

Additional observations from a re-analysis of the deposited data

Results flagged for a closer look

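The changes below passed against WT, but their size differed between the lines by the direct test of OE against KD (edgeR's quasi-likelihood test, adjusted p under 0.05). This holds for 54 of 111 genes named as shared, against 34.4% of the 1010 shared genes and 41.5% of all genes tested. Many of the 111 were picked by size of change, by p or after their values were seen, so they do not represent the 1010. Values are log2 differences, OE minus KD, and no cause of any of them was tested.

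Among genes of the ER list the difference was -0.22 for Calr, -0.30 for Hspa5, -0.19 for Hsp90b1, -0.23 for Creld2, -0.32 for Manf, -0.36 for Herpud1, -0.22 for Pdia4, -0.29 for Pdia6, -0.63 for Sdf2l1, -0.24 for Canx, -0.44 for Edem1 and -0.40 for Sel1l. Among genes of the ATF4 list the difference was 0.95 for Trib3, 0.30 for Slc7a11, 0.17 for Atf4, 0.50 for Asns, 0.67 for Chac1, 0.16 for Psat1, 0.28 for Psph and 0.23 for Mthfd2. Among sterol genes the difference was 0.64 for Sqle and 0.73 for Msmo1. Among endothelial, guidance and chemokine genes the difference was -0.93 for Plxnd1, -1.29 for Il33, 0.89 for Cxcl12, -0.35 for Eng, -0.23 for Sema3c, 0.14 for Ephb4 and -0.60 for Slit3. 

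Among the other genes that rose in both lines it was -0.42 for Actc1, -0.35 for Fbxo25, 2.38 for Plagl1, -0.35 for Ero1lb, 0.37 for Fam171b, 0.30 for Abcb1b, -0.32 for Gm43305, -0.23 for Gm49980, -0.49 for Gm4316, 0.28 for Inhba and 0.16 for Pfkp. Among the other genes that fell in both lines it was -0.67 for Acta2, -0.41 for Serpinf1, -2.03 for Zrsr1, 1.77 for Pogk, -2.47 for Ppfibp2, -1.05 for Islr, -0.32 for Hlf, -0.24 for Col1a1, -0.61 for Tgfb3, -0.17 for Ccn1, -0.23 for Lrp5, 0.92 for Fosb, 0.65 for Btg2 and -4.33 for Sectm1a. A negative value means a smaller rise, or a deeper fall, in OE.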

How the results depend on the processing

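With the 6 modified libraries as 1 group, so that differences between the lines enter the spread, 262 genes passed (112 higher, 150 lower), with 8 ER, 5 ATF4, 3 sterol, 3 chemokine and 2 endothelial genes. When a change of at least 1.5-fold was required, 217 genes passed for the averaged lines (48 higher, 169 lower), 64 in both lines (36 higher, 28 lower) and 1331 between the lines; the averaged lines then had 0 ER, 1 ATF4, 0 sterol, 5 chemokine and 1 endothelial genes, and both lines 0 ER, 0 ATF4, 0 sterol, 1 chemokine and 1 endothelial genes. Library totals alone gave 641 shared genes and 8 shared ATF4 genes, and moved the median of all genes from -0.011 to -0.06. Leaving out 1 library gave 3289 to 4723 genes for the averaged lines, 700 to 1641 shared genes, and 6072 to 7604 between the lines. Over the same omissions the averaged lines had 17 to 18 ER, 18 to 19 ATF4, 17 to 20 sterol, 11 to 12 chemokine and 7 to 8 endothelial genes, and both lines 10 to 13, 11 to 13, 5 to 7, 5 to 5 and 3 to 4. Other scalings, filters and tests kept these counts within 1.5 times.

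Of 2534 pairs of a named gene and a setting, 159 lost the call, most under the first 2 settings, and 0 reversed. The medians of the interferon, NF-kB, p53, YAP, drug transporter, ribosomal protein, mitochondrial mRNA and DNA methylation lists changed sign in at least 1 setting. Same-numbered libraries did not deviate together (correlations -0.0421 to 0.049), and the replicate block gave 3855 genes for the averaged lines and 987 shared genes. The 9 libraries share 1 WT group of 3, and changes of weakly expressed genes were limited by depth.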

Other observations

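The shared changes were mostly in protein-coding genes: 970 of 12594 tested (7.70%), against 14 of 384 lincRNAs and 12 of 2412 processed pseudogenes. The 3 genes off in both lines were weak in WT. The cytoskeletal gene Fsd1 measured 0.316, 0.521 and 0.380 CPM in WT and at most 0.0404 CPM in any modified library. Lrfn3, a synaptic adhesion gene, measured 0.659, 0.403 and 0.268 CPM in WT and at most 0.0251 CPM in the modified libraries, and Sectm1a 0.369, 0.202 and 0.224 CPM and at most 0.0754 CPM.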
